A study of Mus musculus with 6 samples.

Results

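The genes described here are 44 genes of DNA replication, from the loading of the replicative helicase at origins to the moving fork and the supply of its building blocks. They were taken by name from a table of 54532 mouse genes, 22046 of them protein coding, and all 44 names were found. The list holds the 6 subunits of the MCM2 to MCM7 helicase, 10 genes of origin licensing and helicase activation, 6 of the sliding clamp and its loader, 8 of the replicative polymerases and primase, 4 of single-strand binding and Okazaki fragment processing, 4 of deoxynucleotide synthesis and 6 of chromatin assembly, DNA methylation upkeep and fork protection.

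Whole hearts were taken from mice 4 days old that were either Wtap-CKO, a conditional knockout of Wtap, or Wtapflox/flox, called Wtap-flox here. WTAP is a regulatory subunit of the complex that writes N6-methyladenosine on messenger RNA, and the series is about its part in heart development. The 3 hearts in each group were independent biological replicates, per the submitters, and polyadenylated RNA was sequenced. Which cells express Cre, which exons are removed, the sex of the mice and whether the libraries kept strand are not given in the labels and texts used.

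Before a cell copies its DNA, the origin recognition complex, CDC6 and CDT1 load rings of MCM2 to MCM7 onto DNA, which licenses origins. CDC45 and the GINS complex then turn these rings into the active helicase, RPA coats the unwound strands, DNA polymerase alpha with primase starts new strands, and RFC loads the PCNA clamp that holds polymerases delta and epsilon on DNA. Many of these genes are transcribed in a wave at the passage from G1 to S phase, driven by E2F factors, and in mouse the heart muscle cells still copy DNA in the first days after birth before most of them leave the cell cycle.

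Between 15649028 and 18045599 reads per library were assigned to genes, and levels are given as FPKM, which scales reads by gene length and by a library size that the authors set. That size, as the FPKM values imply it, was below the reads assigned in all 3 Wtap-CKO libraries (15445008 to 17630038) and above them in all 3 Wtap-flox libraries (15893746 to 17718012). The cardiomyocyte genes Myh6 and Tnnt2 were abundant in all 6 libraries, as the tissue label says. Wtap itself had 9.32, 7.75 and 9.46 FPKM in the libraries labelled Wtap-CKO and 7.77, 8.74 and 10.9 FPKM in Wtap-flox, a log2 fold change of -0.04 (95% interval -0.37 to 0.29, adjusted p = 0.893, limma). That value counts reads over the whole gene and does not check the labels, so each direction below rests on them.

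Messenger RNA of most of the replication genes was lower in Wtap-CKO hearts. Of the 44 genes, 42 averaged 1 FPKM or more and were tested, and 26 of these fell in Wtap-CKO at an adjusted p below 0.05 (limma on log2(FPKM + 1), Benjamini-Hochberg over all 12568 tested genes). None of the 42 was higher at that threshold, and 16 did not pass in either direction. Among all tested genes, 6.69% were lower and 9.91% higher. At an unadjusted p below 0.05, 35 of the 42 were lower. The fold change was below 0 for all 42, as it was for 49.6% of all tested genes, and the median log2 fold change was -0.63 against 0.00 for all tested genes. By mean FPKM, Wtap-CKO hearts held between 44.02% and 91.6% of the Wtap-flox level, with a median of 58.4%, and the ends of that range were the primase subunit gene Prim1 and the thymidylate synthase gene Tyms. In 31 of the 42 every Wtap-CKO value lay below every Wtap-flox value, which held for 17.3% of all tested genes. In bulk tissue, fewer replicating cells and less RNA per cell cannot be told apart. Labels do not tie these libraries to litters or preparation days. The p-values set the difference between groups against the spread within them in these 6 hearts, moderated over all tested genes.

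The count rested in part on single libraries. It was 15 without Wtap-CKO 1, where 3.56% of all tested genes were lower, and 14 without Wtap-flox 2, where 3.32% were. It was 18 to 28 without each of the others, and 14 genes passed in all 6 fits with a library left out, as 2.47% of all tested genes did. The 14 were Mcm2, Mcm3, Mcm4, Mcm6, Mcm7, Cdt1, Rfc4, Prim1, Pole2, Rpa1, Lig1, Rrm2, Uhrf1 and Timeless.

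**Figure D1:**
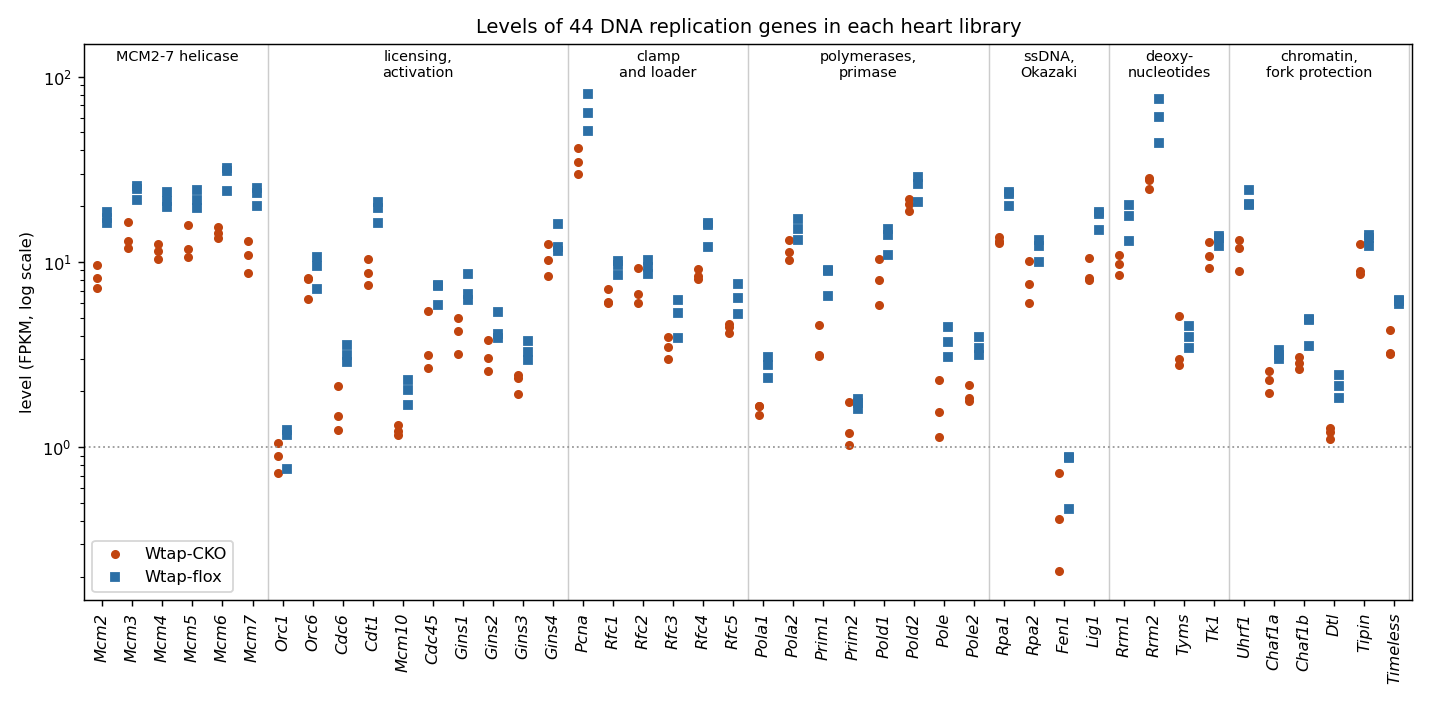
Level of each of the 44 genes in each library, as FPKM on a log axis, with Wtap-CKO libraries as circles left of Wtap-flox libraries as squares, grouped by role. The dotted line marks 1 FPKM, and Orc1 and Fen1 are the genes whose mean lies below it. In 31 of the 42 tested genes the circles lie wholly below the squares.

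All 6 subunits of the MCM2 to MCM7 helicase, the ring that unwinds DNA ahead of the fork, fell in Wtap-CKO hearts. Mcm2 had 7.25, 8.14 and 9.65 FPKM in Wtap-CKO and 16.2, 18.7 and 17.3 FPKM in Wtap-flox. Mcm4 had 11.5, 10.4 and 12.4 FPKM in Wtap-CKO and 19.7, 21.4 and 23.9 FPKM in Wtap-flox. Mcm6 had 14.4, 13.4 and 15.4 FPKM in Wtap-CKO and 24.1, 30.9 and 32.1 FPKM in Wtap-flox. For these 3 genes the Wtap-CKO libraries lay close together and far below the lowest Wtap-flox library. Their log2 fold changes were -0.98 for Mcm2, -0.87 for Mcm4 and -0.95 for Mcm6 (adjusted p = 0.0022, 0.0029 and 0.0031, limma).

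Mcm3 had 13.0, 11.9 and 16.5 FPKM in Wtap-CKO and 21.7, 25.7 and 24.7 FPKM in Wtap-flox. Mcm5 had 10.6, 11.7 and 15.8 FPKM in Wtap-CKO and 19.6, 24.4 and 21.6 FPKM in Wtap-flox. Mcm7 had 10.96, 8.67 and 13.0 FPKM in Wtap-CKO and 20.0, 23.5 and 25.0 FPKM in Wtap-flox. Wtap-CKO 3 was the highest of its group for all 3, and still below each Wtap-flox library. The log2 fold changes were -0.77 for Mcm3, -0.75 for Mcm5 and -1.02 for Mcm7 (adjusted p = 0.0088, 0.0144 and 0.0041, limma). With a library left out, Mcm5 no longer passed without Wtap-CKO 1 (adjusted p = 0.0567) or Wtap-flox 2 (0.0614).

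The 6 subunits sit in the ring in equal numbers, and their messages were of similar abundance per length. Their FPKM summed to 67.7, 64.2 and 82.7 in Wtap-CKO and to 121, 145 and 145 in Wtap-flox. Within that sum the share of Mcm3 was 18.5% to 19.9% in Wtap-CKO and 17.1% to 17.9% in Wtap-flox, and the share of Mcm7 was 13.5% to 16.2% in Wtap-CKO and 16.3% to 17.3% in Wtap-flox. The shares of the other 4 subunits overlapped between the groups. An exact two-sided permutation test of a share gave p = 0.1 for Mcm3 and Mcm7, the smallest p that 3 against 3 allows (adjusted p = 0.317 over the 19 shares compared in 4 complexes).

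The promoters of the MCM genes are shown because these genes fell together, with that of Cdt1, which acts with them in licensing, and that of Tyms, the tested gene with the fold change nearest 0. These 7 were picked with the fold changes known. Sequences are from RefSeq on GRCm38.p6 and run 5′ to 3′ on the gene's strand, from 250 bases before to 50 bases after the start of the gene. They are in lower case, and capitals mark the words TTCCCGC and TTGGCGC, which E2F factors bind, and CCAAT, which the factor NF-Y binds, on either strand. Mcm4 is named only. The windows are chr6:88898731-88899030 for Mcm2, chr1:20820263-20820562 for Mcm3, chr8:75109259-75109558 for Mcm5, chr1:128359656-128359955 for Mcm6, chr5:138171834-138172133 for Mcm7, chr8:122567765-122568064 for Cdt1 and chr5:30073576-30073875 for Tyms. Those of Mcm5 and Cdt1 are on the plus strand and the others on the minus strand.
Mcm2: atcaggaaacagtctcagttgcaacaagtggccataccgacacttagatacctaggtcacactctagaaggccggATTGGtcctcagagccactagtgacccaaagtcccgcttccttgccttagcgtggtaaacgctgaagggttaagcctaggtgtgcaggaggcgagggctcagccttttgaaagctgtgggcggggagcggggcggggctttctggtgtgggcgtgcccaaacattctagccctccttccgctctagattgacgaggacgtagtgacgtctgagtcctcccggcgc
Mcm3: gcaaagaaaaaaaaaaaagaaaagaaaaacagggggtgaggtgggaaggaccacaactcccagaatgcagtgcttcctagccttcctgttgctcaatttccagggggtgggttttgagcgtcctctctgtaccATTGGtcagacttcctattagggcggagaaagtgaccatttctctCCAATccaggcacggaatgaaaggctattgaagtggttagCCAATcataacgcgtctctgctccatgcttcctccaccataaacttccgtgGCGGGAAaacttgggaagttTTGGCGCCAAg
Mcm5: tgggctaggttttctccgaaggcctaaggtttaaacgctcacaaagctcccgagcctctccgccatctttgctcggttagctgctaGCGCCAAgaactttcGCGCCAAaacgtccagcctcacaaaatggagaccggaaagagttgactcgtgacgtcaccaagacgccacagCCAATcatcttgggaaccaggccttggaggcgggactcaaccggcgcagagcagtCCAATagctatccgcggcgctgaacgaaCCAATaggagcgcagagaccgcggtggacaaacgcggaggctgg
Mcm6: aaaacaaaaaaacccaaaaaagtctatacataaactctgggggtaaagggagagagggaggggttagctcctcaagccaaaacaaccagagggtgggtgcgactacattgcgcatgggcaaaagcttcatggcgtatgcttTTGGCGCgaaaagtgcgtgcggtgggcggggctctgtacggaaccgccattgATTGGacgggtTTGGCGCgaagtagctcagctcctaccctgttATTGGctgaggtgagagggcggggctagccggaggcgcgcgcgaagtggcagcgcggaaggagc
Mcm7: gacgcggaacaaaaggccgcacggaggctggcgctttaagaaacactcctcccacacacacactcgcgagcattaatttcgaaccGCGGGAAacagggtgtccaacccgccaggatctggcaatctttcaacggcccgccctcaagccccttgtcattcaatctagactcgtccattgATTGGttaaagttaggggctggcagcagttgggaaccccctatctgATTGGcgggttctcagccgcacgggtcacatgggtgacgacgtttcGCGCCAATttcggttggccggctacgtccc
Cdt1: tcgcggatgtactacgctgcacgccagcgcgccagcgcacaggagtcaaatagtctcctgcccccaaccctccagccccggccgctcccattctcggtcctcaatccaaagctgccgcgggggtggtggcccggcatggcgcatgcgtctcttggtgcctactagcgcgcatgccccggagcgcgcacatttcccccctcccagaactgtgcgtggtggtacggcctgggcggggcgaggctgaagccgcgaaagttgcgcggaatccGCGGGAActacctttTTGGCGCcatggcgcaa
Tyms: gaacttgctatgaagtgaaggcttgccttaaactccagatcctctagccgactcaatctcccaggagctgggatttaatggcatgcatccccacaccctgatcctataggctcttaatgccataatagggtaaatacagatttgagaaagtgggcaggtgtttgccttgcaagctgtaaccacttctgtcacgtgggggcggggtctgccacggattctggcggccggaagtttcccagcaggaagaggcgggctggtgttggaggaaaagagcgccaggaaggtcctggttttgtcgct

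In the Mcm3 window 3 NF-Y words lie before the start and E2F words lie after it, among them 2 that share bases on opposite strands. The Mcm5 and Mcm6 windows each hold 2 E2F words before the start, and the Mcm7 window holds an E2F word on each side of it and an NF-Y word that shares bases with the downstream one. The Cdt1 window holds 2 E2F words after the start and no NF-Y word. The Mcm2 window holds an NF-Y word and neither E2F word, and Tyms holds neither kind. The RefSeq start of Mcm7 lies 539 bases from the start in the authors' table, and those of the other 6 genes lie within 60 bases of it.

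Across the list, 36 of the 44 genes had a promoter in the RefSeq table, and for 33 of these its start lay within 250 bases of the start in the authors' table. The word TTCCCGC or TTGGCGC, on either strand, stood in 20 of the 36 (55.6%). It stood in 6.81% of all 32851 promoters of the table and in 13% of the promoters of 8790 tested protein coding genes. Among the genes that fell, 16 of 23 held either word (69.6%), and among the tested genes that did not pass it was 4 of 11 (36.4%). TTGGCGC stood in 9 of the 23 and in 0 of the 11, and the 9 were Mcm3, Mcm5, Mcm6, Mcm7, Cdt1, Rfc1, Pola1, Pole2 and Dtl. The 7 that fell without either word in this window were Rrm2, Mcm2, Lig1, Pcna, Cdc45, Rpa1 and Timeless, and the RefSeq start of Timeless lies 6001 bases from the one in the authors' table. These counts are descriptions of letters and were not tested.

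The NF-Y word CCAAT, on either strand, stood in 23 of the 36 promoters (63.9%), in 37.4% of all promoters and in 39% of those of the tested coding genes. Its share was 65.2% among the genes that fell and 63.6% among those that did not pass. The word TTTGAA, which lies in the element that represses many G2 and mitosis genes outside their phase, stood in 4 of the 36 (11.1%), in 17.9% of all promoters and in 11.4% of those of the tested coding genes. Among the 8790 tested coding genes with a promoter, an E2F word stood in 20.6% of those that fell in Wtap-CKO and in 10.4% of those that rose. Those that fell include the 23 replication genes counted above.

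**Figure D2:**
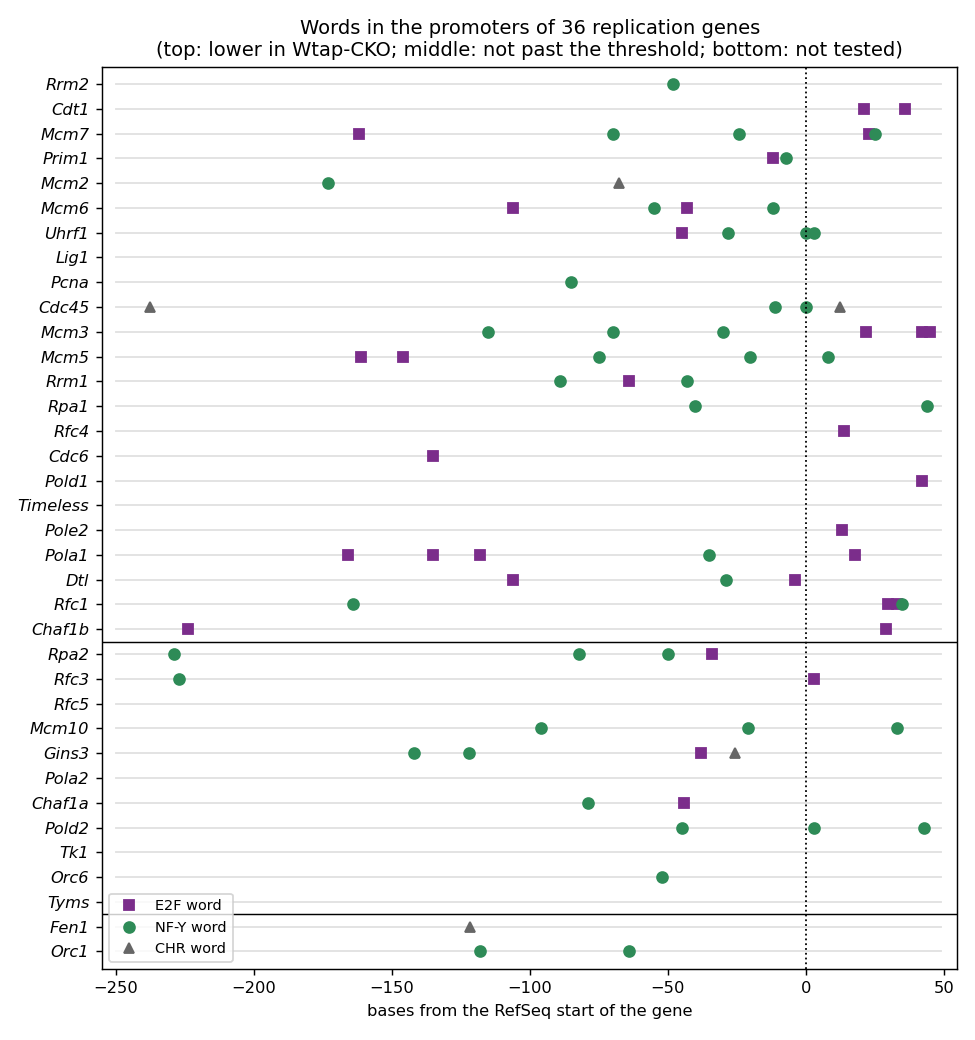
Position of each word in the promoters of 36 of the genes, in bases from the RefSeq start, with genes that fell at the top, tested genes that did not pass in the middle and the 2 untested genes at the bottom. Squares stand for the E2F words, circles for CCAAT and triangles for TTTGAA. Squares appear in 16 of the 23 promoters at the top and in 4 of the 11 in the middle.

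Of 9 tested genes of origin licensing and helicase activation, 4 fell in Wtap-CKO hearts. Cdt1, which brings the MCM ring to the origin, had 7.47, 8.70 and 10.4 FPKM in Wtap-CKO and 16.2, 21.1 and 19.6 FPKM in Wtap-flox. Cdc6, the ATPase that works with CDT1, had 1.48, 1.24 and 2.14 FPKM in Wtap-CKO and 2.87, 3.59 and 3.14 FPKM in Wtap-flox. The groups did not overlap for either gene, with log2 fold changes of -1.02 for Cdt1 and -0.69 for Cdc6 (adjusted p = 0.0033 and 0.0164, limma). Cdc6 no longer passed without Wtap-CKO 1 (adjusted p = 0.0571) or Wtap-flox 2 (0.0665).

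No tested gene of the origin recognition complex passed. Orc6, its smallest subunit, had 8.20, 6.29 and 8.13 FPKM in Wtap-CKO and 7.13, 9.45 and 10.7 FPKM in Wtap-flox. The groups overlapped, and its log2 fold change of -0.23 did not pass (adjusted p = 0.371, 95% interval -0.60 to 0.14, limma). Orc1, the largest subunit, was below the filter, with 0.730, 0.893 and 1.06 FPKM in Wtap-CKO and 1.24, 0.760 and 1.17 FPKM in Wtap-flox, from 41 to 75 reads a library. The subunit genes Orc2, Orc3, Orc4 and Orc5, which are outside the 44 genes and were picked out after their values were seen, had log2 fold changes of -0.06, -0.13, 0.05 and -0.09, and none passed (adjusted p between 0.458 and 0.793, limma).

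The helicase activators fell in part. Cdc45, which joins the MCM ring at firing, had a log2 fold change of -0.77 (adjusted p = 0.0384) but it passed with no library left out other than Wtap-CKO 3 (0.0609 to 0.12 for the other 5). Among the 4 GINS subunits Gins1 fell (-0.67, adjusted p = 0.0269, limma), while Gins2, Gins3 and Gins4 had log2 fold changes of -0.40, -0.41 and -0.31 and did not pass. Gins1 missed the threshold without Wtap-CKO 1, Wtap-CKO 2, Wtap-flox 2 or Wtap-flox 3 (adjusted p between 0.0595 and 0.0863). Mcm10, which helps the helicase start, had -0.42 and just missed the threshold, with no overlap between groups (adjusted p = 0.0534). Within the GINS sum the share of Gins1 was 19.3% to 21.6% in Wtap-CKO and 24.5% to 26.6% in Wtap-flox, and that of Gins4 was 50.9% to 53.7% in Wtap-CKO and 43.9% to 49.3% in Wtap-flox (exact permutation p = 0.1 each, adjusted p = 0.317). The count of 4 for this role was 1 when Wtap-CKO 1 or Wtap-flox 2 was left out and 2 when either Wtap-CKO 2 or Wtap-flox 3 was left out.

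**Figure D3:**
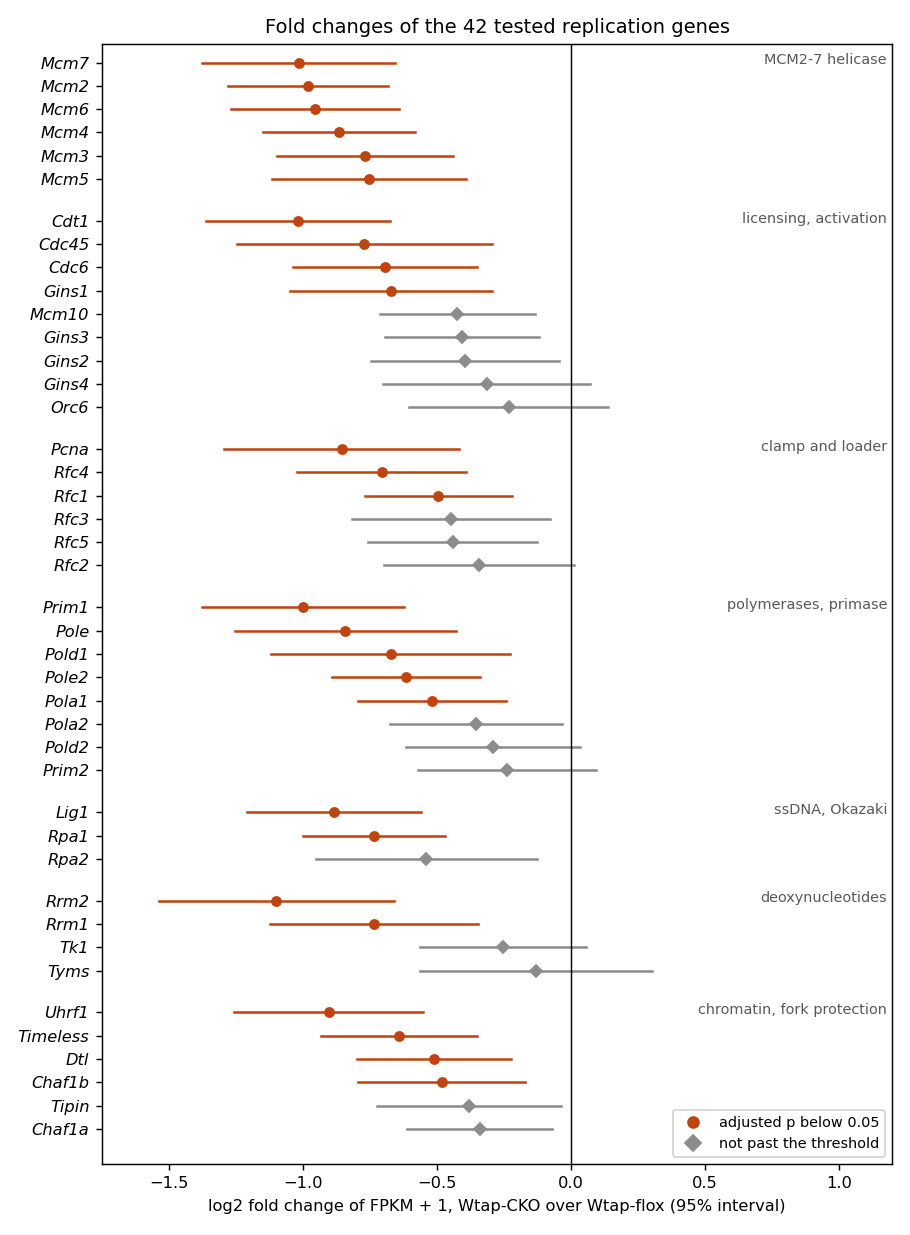
Log2 fold change of FPKM + 1, Wtap-CKO over Wtap-flox, for the 42 tested genes with 95% intervals, grouped by role and ordered within a role. Orange circles passed an adjusted p of 0.05 and grey diamonds did not. All 42 points lie left of 0, between -1.10 for Rrm2 and -0.13 for Tyms.

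The sliding clamp gene and 2 genes of its loader fell. Pcna, the clamp that tethers polymerases, was the most abundant of the 44 genes, with 34.5, 29.8 and 41.4 FPKM in Wtap-CKO and 51.1, 63.7 and 80.6 FPKM in Wtap-flox. Rfc4, a small subunit of the loader, had 9.17, 8.40 and 8.07 FPKM in Wtap-CKO and 12.0, 15.8 and 16.2 FPKM in Wtap-flox. Neither gene overlapped between groups, and for both Wtap-flox 1 was the lowest of its group. The log2 fold changes were -0.86 for Pcna and -0.71 for Rfc4 (adjusted p = 0.0184 and 0.0109, limma). Pcna no longer passed without Wtap-CKO 1 (adjusted p = 0.0598), Wtap-flox 2 (0.0603) or Wtap-flox 3 (0.0577).

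Rfc1, the large subunit, fell by 0.50 on the log2 scale (adjusted p = 0.0252) and missed the threshold without Wtap-CKO 1, Wtap-flox 1 or Wtap-flox 2 (0.087 to 0.0917). Rfc2 had 6.72, 5.99 and 9.23 FPKM in Wtap-CKO and 8.60, 9.44 and 10.2 FPKM in Wtap-flox. Here Wtap-CKO 3 lay within the Wtap-flox range, and the log2 fold change of -0.34 did not pass (adjusted p = 0.172). Without Wtap-CKO 3, Rfc2 passed (adjusted p = 0.0302). Rfc3 and Rfc5 had -0.45 and -0.44 and did not pass (adjusted p = 0.0966 and 0.0609), and both passed without Wtap-flox 1 (0.0452 and 0.0429). The count of 3 was 1 without Wtap-CKO 1 or Wtap-flox 2.

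Among the polymerase and primase genes 5 of 8 fell. Prim1, the catalytic subunit of primase, had 3.11, 3.16 and 4.56 FPKM in Wtap-CKO and 6.57, 9.06 and 8.97 FPKM in Wtap-flox. Pole2, the subunit that partners the catalytic subunit of polymerase epsilon, had 1.78, 1.84 and 2.17 FPKM in Wtap-CKO and 3.15, 3.43 and 3.92 FPKM in Wtap-flox. Both had a clear gap between groups, with log2 fold changes of -0.999 for Prim1 and -0.62 for Pole2 (adjusted p = 0.0052 and 0.0111, limma). Prim2, the regulatory subunit of primase, had 1.03, 1.19 and 1.75 FPKM in Wtap-CKO and 1.61, 1.81 and 1.73 FPKM in Wtap-flox. Wtap-CKO 3 was within the Wtap-flox range, and the log2 fold change of -0.24 did not pass (adjusted p = 0.304).

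The catalytic subunit genes of all 3 replicative polymerases fell, with log2 fold changes of -0.52 for Pola1, -0.67 for Pold1 and -0.84 for Pole (adjusted p = 0.022, 0.0485 and 0.0153, limma). Their accessory subunits Pola2 and Pold2 had -0.35 and -0.29 and did not pass (adjusted p = 0.122 and 0.205). Pola1 missed the threshold without Wtap-CKO 1, Wtap-flox 2 or Wtap-flox 3 (0.0599 to 0.0927), Pole without Wtap-CKO 1 or Wtap-flox 2 (0.05 and 0.0611), and Pold1 without each library but Wtap-CKO 3 (0.0527 to 0.151). The count of 5 became 2 when Wtap-CKO 1 or Wtap-flox 2 was left out and 3 when Wtap-flox 3 was.

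Polymerase alpha and primase form a complex of 4 subunits, and the share of 2 of them in the summed messages did not overlap between groups. Prim1 was 18.3% to 21.7% of the summed FPKM in Wtap-CKO and 27.8% to 31.5% in Wtap-flox. Pola2 was 62.8% to 65.3% in Wtap-CKO and 52.7% to 55.3% in Wtap-flox. The shares of Pola1 and Prim2 overlapped. The exact permutation test gave p = 0.1 for Prim1 and for Pola2 (adjusted p = 0.317). Of the 19 shares compared over the MCM, GINS, RFC and polymerase alpha complexes, 6 did not overlap between groups, and none of the 5 RFC shares was among them. Each of the 6 had an exact permutation p of 0.1, the smallest possible (adjusted p = 0.317), and shares within other complexes were not counted. Shares of a complex add up to the whole, so a lower share of some subunits goes with a higher share of others. They are not independent results.

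In single-strand binding and Okazaki fragment processing, 2 of 3 tested genes fell. Rpa1, the large subunit of the protein that coats single strands, had 12.9, 12.6 and 13.6 FPKM in Wtap-CKO and 20.1, 23.8 and 23.4 FPKM in Wtap-flox. Lig1, the ligase that seals Okazaki fragments, had 8.04, 8.15 and 10.5 FPKM in Wtap-CKO and 14.9, 18.7 and 18.1 FPKM in Wtap-flox. The groups lay apart for both, with log2 fold changes of -0.73 for Rpa1 and -0.88 for Lig1 (adjusted p = 0.0044 and 0.0047, limma), and both passed with any library left out. Rpa2, the middle subunit of the same protein, had 7.61, 5.99 and 10.2 FPKM in Wtap-CKO and 10.04, 12.2 and 13.2 FPKM in Wtap-flox. Its groups overlapped by Wtap-CKO 3 alone, its log2 fold change was -0.54 (adjusted p = 0.0754), and it passed without that library (adjusted p = 0.0194). Fen1, the flap nuclease of Okazaki fragments, was below the filter at 0.214 to 0.726 FPKM in Wtap-CKO and 0.466 to 0.883 FPKM in Wtap-flox, from 8 to 37 reads a library. In the authors' coordinates it overlaps Gm10143 over 3253 bases and Tmem258 over 156 bases, both on the opposite strand, and how reads in overlaps were counted is not stated.

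Of 4 genes of deoxynucleotide synthesis 2 fell. Rrm2, the small subunit of ribonucleotide reductase that is made in S phase, had 27.5, 24.7 and 28.3 FPKM in Wtap-CKO and 43.7, 60.3 and 76.0 FPKM in Wtap-flox. Rrm1, the large subunit, had 10.9, 9.72 and 8.47 FPKM in Wtap-CKO and 13.0, 17.7 and 20.4 FPKM in Wtap-flox. The Wtap-CKO values of Rrm2 were close together and the Wtap-flox values spread widely, with no overlap. The log2 fold changes were -1.10 for Rrm2 and -0.74 for Rrm1 (adjusted p = 0.0067 and 0.0209, limma), and without Wtap-flox 2 (0.0744) or Wtap-flox 3 (0.0678) Rrm1 no longer passed, which left 1 gene.

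Tyms, which makes thymidylate, had 3.00, 2.79 and 5.13 FPKM in Wtap-CKO and 3.44, 4.54 and 3.95 FPKM in Wtap-flox. Wtap-CKO 3 was the highest of all 6 libraries, and its log2 fold change of -0.13 did not pass (95% interval -0.56 to 0.30, adjusted p = 0.683). Tk1, which makes thymidylate from thymidine, had -0.25 and did not pass (adjusted p = 0.246).

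Among the genes that rebuild chromatin and protect the fork, 4 of 6 fell. Uhrf1, which brings the maintenance DNA methyltransferase to new DNA, had 8.90, 11.9 and 13.1 FPKM in Wtap-CKO and 20.6, 24.6 and 20.3 FPKM in Wtap-flox. Timeless, which protects the fork as a pair with TIPIN, had 3.23, 3.18 and 4.31 FPKM in Wtap-CKO and 6.17, 6.21 and 5.90 FPKM in Wtap-flox. Neither overlapped, and the log2 fold changes were -0.90 for Uhrf1 and -0.64 for Timeless (adjusted p = 0.0061 and 0.0115, limma). Its partner Tipin had 8.98, 8.66 and 12.5 FPKM in Wtap-CKO and 12.2, 13.5 and 14.0 FPKM in Wtap-flox. Tipin overlapped through Wtap-CKO 3, had a log2 fold change of -0.38 (adjusted p = 0.121) and passed without that library (adjusted p = 0.0196).

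Dtl, the adaptor that marks CDT1 for destruction in S phase, and Chaf1b, a subunit of the histone chaperone CAF-1, fell by 0.51 and 0.48 on the log2 scale (adjusted p = 0.0267 and 0.0438, limma). Dtl missed the threshold without Wtap-CKO 1, Wtap-CKO 2, Wtap-flox 2 or Wtap-flox 3 (0.0538 to 0.0993), and Chaf1b without each library but Wtap-flox 1 (0.0559 to 0.152). The count of 4 was 2 in each of those 4 fits. Chaf1a, the large CAF-1 subunit, had -0.34 with no overlap between groups and did not pass (adjusted p = 0.086). Chaf1a overlaps Ubxn6 over 5245 bases on the opposite strand, and Ubxn6 had 2.32 FPKM in Wtap-CKO and 3.52 FPKM in Wtap-flox on average. Of the 44 genes, 24 overlap some other gene in the authors' coordinates and 9 overlap a gene of at least 1 FPKM. Cdt1 lies within Gm20388 on the same strand over 5540 bases, and Gm20388 is listed at 0 in all 6 libraries.

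In each group a single library held the same rank for most of the genes. Wtap-CKO 3 was the highest of its group for 35 of the 42 tested genes, and Wtap-CKO 2 and Wtap-CKO 1 were the lowest for 22 and 15. Wtap-flox 1 was the lowest of its group for 38 of the 42, and Wtap-flox 2 and Wtap-flox 3 were the highest for 21 and 20. Such ranks were not counted over all tested genes. Summed over all genes, FPKM was also highest in Wtap-CKO 3 within its group (388328) and lowest in Wtap-flox 1 within its group (315632). The mean deviation of the 42 genes from their own mean, on the log2 scale, was -0.38, -0.41 and -0.13 in Wtap-CKO 1 to 3 and 0.14, 0.38 and 0.40 in Wtap-flox 1 to 3. All 7 roles kept this order of the groups, each Wtap-CKO library below each Wtap-flox library. Genes with a Wtap-flox mean of at least 10 FPKM fell in 15 of 21 cases and those below it in 11 of 21. Of all tested genes 6.69% fell, a share not split by level here. The pseudocount of 1 also understates the fold changes of low genes, so this split is not a trait of the abundant genes alone.

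**Figure D4:**
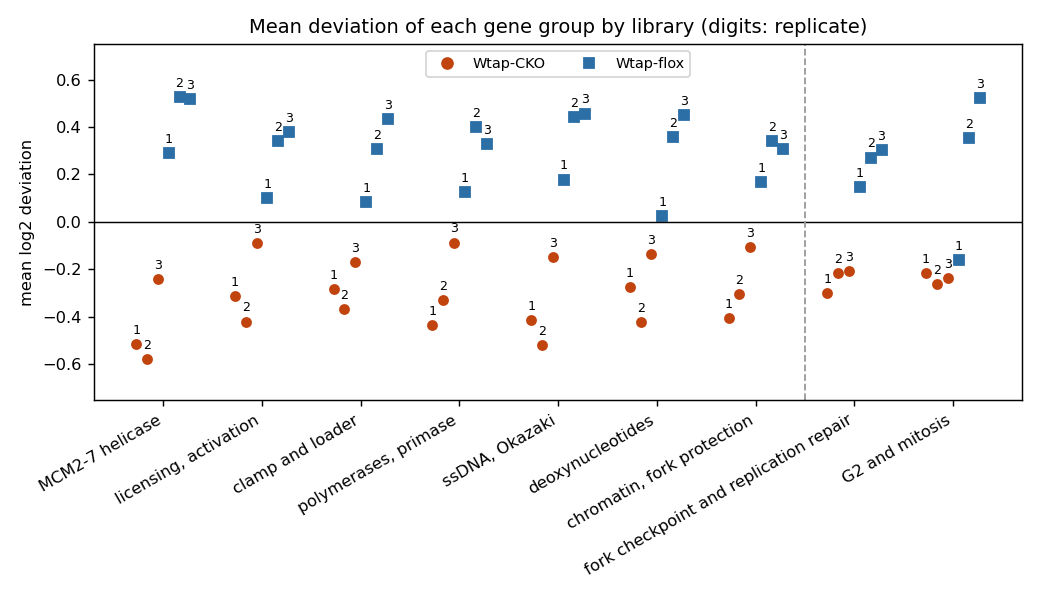
Mean log2 deviation of each gene group in each library from the mean of each gene over the 6 libraries, with Wtap-CKO as circles left of Wtap-flox as squares and the replicate number above each point. The 7 roles of the 44 genes stand left of the dashed line and 2 other lists right of it. For G2 and mitosis genes Wtap-flox 1 lies at -0.16, near the Wtap-CKO libraries at -0.22 to -0.26, while in the 7 roles it lies above 0.

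Outside the 44 genes, 119 of 121 other genes around replication and the cell cycle were tested, and 42 fell and 2 rose. Among all tested genes 6.69% were lower and 9.91% higher, and 3.32% to 6.6% were lower with a library left out. These shares are the background of the list counts that follow. The list of fork checkpoint and replication repair had 11 of 17 lower and 0 higher, with a median log2 fold change of -0.61. Msh6, which takes part in recognising mismatches behind the fork, had -0.61, Bard1, the partner of BRCA1, had -0.83, and Clspn, which relays the signal of stalled forks to CHK1, had -0.62 (adjusted p = 0.0082, 0.0055 and 0.0078, limma). Atrip, the partner of the ATR kinase, had 0.01. Msh6, Bard1 and Clspn passed with any library left out, while the count of 11 became 5 when Wtap-CKO 1 was left out and 4 when Wtap-flox 2 or Wtap-flox 3 was.

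Of 12 other replication-coupled chromatin factors 6 fell and 0 rose. The remodeller Hells, the histone chaperone Nasp, the maintenance methyltransferase Dnmt1 and the fork repair factor Mms22l had -0.80, -0.72, -0.67 and -0.47 (adjusted p = 0.0048, 0.0074, 0.0164 and 0.022, limma). The count became 2 when Wtap-CKO 1 or Wtap-flox 2 was left out and 3 when Wtap-flox 3 was, and Dnmt1 (0.0626 and 0.0691) and Mms22l (0.0754 and 0.0876) missed the threshold without Wtap-CKO 1 and Wtap-flox 2. Mms22l also missed it without Wtap-flox 3 (0.0755).

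Of 16 other licensing, firing and helicase factors 4 fell and 0 rose, with a median of -0.25. Wdhd1, which links the helicase to polymerase alpha, had -0.61, Topbp1, which helps CDC45 and GINS join the ring, had -0.57, the helicase Mcm8 had -0.63 and Mcmbp, which binds MCM proteins, had -0.38 (adjusted p = 0.0071, 0.0119, 0.0205 and 0.0475, limma). Dbf4, the activator of the CDC7 kinase, had 0.17 and did not pass. Wdhd1 passed with any library left out, Topbp1 with any but Wtap-flox 2 (0.0539), and Mcmbp with none (0.0509 to 0.169). Mcm8 missed the threshold without Wtap-CKO 1, Wtap-flox 2 or Wtap-flox 3 (0.0607 to 0.0793), and the count became 2 when Wtap-CKO 1 or Wtap-flox 3 was left out and 1 when Wtap-flox 2 was.

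Of 16 other polymerase, clamp and Okazaki factors 5 fell and 0 rose, with a median of -0.32. The flap nuclease and helicase Dna2 had -0.80 and passed with any library left out (adjusted p = 0.0047, limma). Dscc1 and Chtf18, parts of the alternative clamp loader for cohesion, had -0.62 and -0.71, and Atad5, which unloads PCNA, had -0.43 (adjusted p = 0.026, 0.0349 and 0.0405). At these low levels the pseudocount shrinks the fold change, and limma-voom on recovered reads gave -1.29 for Dscc1 and -0.99 for Chtf18. The count of 5 became 3 when Wtap-flox 1 was left out and 1 when any library but Wtap-flox 1 or Wtap-CKO 3 was. Dscc1 passed without Wtap-CKO 3 alone and was below the filter with any Wtap-flox library left out, Chtf18 passed only without Wtap-CKO 3 or Wtap-flox 1 (0.0839 to 0.114 for the other 4), and Atad5 passed with none left out (0.0555 to 0.135). Pold4, the smallest subunit of polymerase delta, had 0.44 and did not pass (adjusted p = 0.0626).

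Of 14 other genes of nucleotide supply 3 fell and 1 rose, with a median of -0.11. Among those that fell, Dut, which keeps uracil out of DNA, and the salvage kinase Dck had -0.79 and -0.75 (adjusted p = 0.0133 and 0.0134, limma), and both passed with any library left out. Umps, of pyrimidine synthesis, rose by 0.48 (adjusted p = 0.0202), but missed the threshold without Wtap-CKO 1, Wtap-flox 1 or Wtap-flox 3 (0.0593 to 0.0743).

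Of 26 genes of G1/S control 7 fell and 1 rose, with a median of -0.31. E2f1, an activator of replication genes, had -1.05, E2f8, a repressor that is itself an E2F target, had -0.74, and the pocket protein gene Rbl1 had -0.83 (adjusted p = 0.0074, 0.0034 and 0.0064, limma). Cdkn1a, which encodes the inhibitor p21, had 24.0, 28.7 and 35.97 FPKM in Wtap-CKO and 14.8, 16.7 and 14.6 FPKM in Wtap-flox, and rose by 0.89 (adjusted p = 0.0068). These 4 passed with any library left out, while the count of 7 became 3 when Wtap-CKO 1 or Wtap-flox 2 was left out and 4 when Wtap-flox 3 was.

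Of 18 genes of G2 and mitosis 6 fell and 0 rose, with a median of -0.42. Here Wtap-flox 1 stood with the Wtap-CKO libraries: the mean deviation was -0.22, -0.26 and -0.24 in Wtap-CKO 1 to 3 and -0.16, 0.35 and 0.52 in Wtap-flox 1 to 3. Without Wtap-flox 1 the count was 10, and it was 4 without Wtap-CKO 1, Wtap-flox 2 or Wtap-flox 3.

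**Figure D5:**
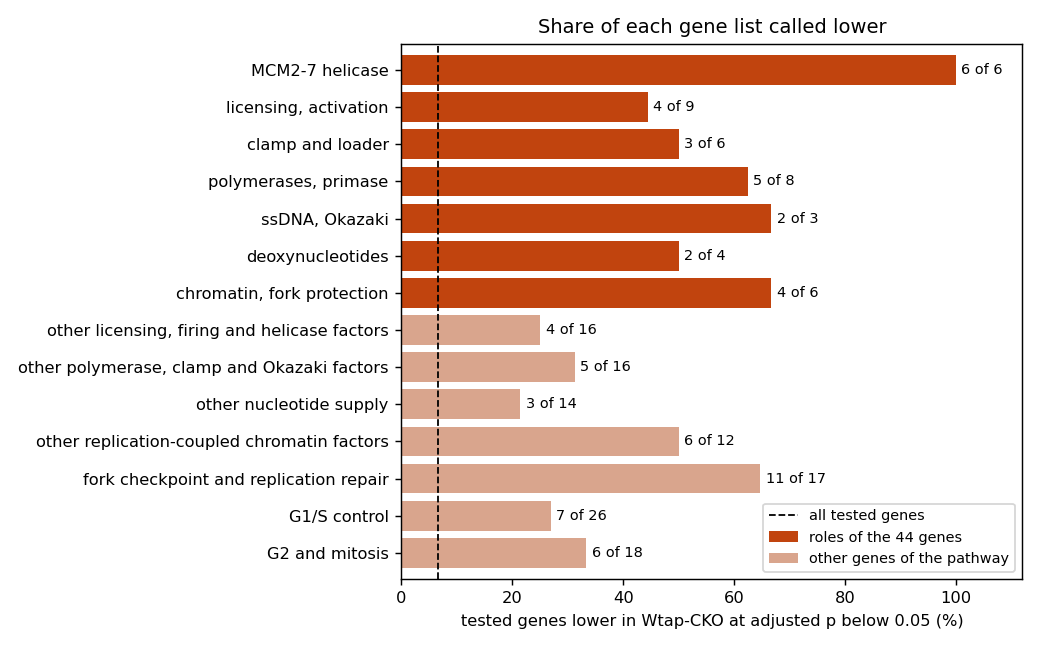
Share of the tested genes of each list that were lower in Wtap-CKO at an adjusted p below 0.05, in percent, with the 7 roles of the 44 genes in dark bars and 7 lists of other replication and cell cycle genes in light bars. The dashed line marks 6.69%, the share of all tested genes. The share is 6 of 6 for the MCM helicase, 11 of 17 for checkpoint and repair, and 3 of 14 for nucleotide supply.

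Of the 44 genes, 6 start within 1000 bases of the start of a protein coding gene that runs the other way and does not overlap them. Opposite-strand genes that overlap a gene of the list, such as Ufd1 at Cdc45, are not in this count. Dtl and Ints7, a subunit of the Integrator complex, start 92 bases apart, and both fell. Ints7 had 7.01, 7.23 and 6.88 FPKM in Wtap-CKO and 11.04, 9.13 and 10.2 FPKM in Wtap-flox, with a log2 fold change of -0.46 (adjusted p = 0.0259, limma). It missed the threshold without Wtap-CKO 1 (0.0821), Wtap-flox 1 (0.0912) or Wtap-flox 3 (0.0759), and the count of 1 was then 0.

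The other 5 partners did not pass, and 6.69% of all tested genes were lower. Prkdc, the catalytic subunit of a repair kinase, starts 466 bases from Mcm4 and had a log2 fold change of -0.37 (adjusted p = 0.0941). The peroxisomal gene Pxmp2 starts 120 bases from Pole and had -0.62 (adjusted p = 0.0789), and Smyd4 starts 109 bases from Rpa1 and had -0.36 (adjusted p = 0.0612). For these 3 every Wtap-CKO value lay below every Wtap-flox value, as it did for 17.3% of all tested genes. Prpf38a, 87 bases from Orc1, and Abhd12, 659 bases from Gins1, had -0.13 and 0.05 and overlapped between groups.

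Markers of other cells were set beside these results, and their counts stand beside 6.69% of all tested genes lower and 9.91% higher. Summed levels of 8 cardiomyocyte markers were 6328 to 6824 FPKM in Wtap-CKO and 6121 to 7783 FPKM in Wtap-flox, with 1 of 8 lower. Those of 8 fibroblast markers were 530 to 741 FPKM in Wtap-CKO and 705 to 802 FPKM in Wtap-flox, with 2 of 8 lower, and those of 8 endothelial markers were 245 to 260 FPKM in Wtap-CKO and 255 to 284 FPKM in Wtap-flox, with 1 lower and 1 higher. None of these 3 sums separated the groups (exact permutation p = 0.3 to 0.4). For smooth muscle and pericyte markers 2 of 7 tested were higher, and the sum was 759 to 986 FPKM in Wtap-CKO and 555 to 796 FPKM in Wtap-flox (exact permutation p = 0.3). With a library left out the counts were 0 to 1 lower for cardiomyocyte and 1 to 2 lower for fibroblast markers. They were 0 lower and 1 higher for endothelial and 0 to 2 higher for smooth muscle markers.

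Macrophage marker levels lay higher in Wtap-CKO. Of all tested genes 9.91% were higher, and 5.7% to 9.46% with a library left out. The macrophage sum was 70.1 to 131 FPKM in Wtap-CKO and 45.8 to 53.4 FPKM in Wtap-flox, and 4 of 8 markers were higher in Wtap-CKO. That count became 0 when Wtap-flox 1 or Wtap-flox 2 was left out and 2 when Wtap-CKO 1 or Wtap-flox 3 was. Epicardial markers summed to 46.0 to 49.6 FPKM in Wtap-CKO and 32.2 to 35.7 FPKM in Wtap-flox, with 1 of 4 tested higher (2 without Wtap-CKO 3, when Tbx18 also passed at an adjusted p of 0.0036, limma) and Upk3b, Upk1b and Msln below 1 FPKM throughout. Most of that sum was Aldh1a2, at 26.4 to 33.8 FPKM in Wtap-CKO and 23.8 to 26.2 FPKM in Wtap-flox. Aldh1a2 did not pass (adjusted p = 0.195, limma). Platelet markers summed to 8.60 to 15.5 FPKM in Wtap-CKO and 6.19 to 8.34 FPKM in Wtap-flox, with Gp1bb at 0 in all libraries. Pf4, the single platelet gene tested, was higher (adjusted p = 0.0453, limma), which held without Wtap-CKO 2 and was lost without any one of the other 5 libraries (0.0549 to 0.141) and with limma-voom (0.0621). Lymphocyte markers summed to 2.07 to 3.27 FPKM in Wtap-CKO and 1.07 to 1.98 FPKM in Wtap-flox, and none of the 7 reached the filter. The exact permutation p was 0.1 for each of these 4 sums (adjusted p = 0.25 over 10 marker lists). Erythroid markers ranged over 1286 to 2236 FPKM in Wtap-CKO and 723 to 2242 FPKM in Wtap-flox (p = 1), and neuron markers over 1.99 to 3.40 FPKM in Wtap-CKO and 2.20 to 2.59 FPKM in Wtap-flox (p = 0.8, both exact permutation tests), with 0 called in either list. The part of any of these cell types in the levels of the replication genes was not tested.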

How the data were processed

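Polyadenylated RNA of 6 mouse hearts, 3 per group as labelled, was analysed from a gene table of FPKM values that the authors deposited. The aligner was HISAT2 2.0.5 and the counter featureCounts 1.5.0-p3, per the design text, and the submitters' processing notes also name CASAVA and DESeq2 1.20.0. FPKM times the deposited gene length gave whole reads within 0.01 for 100.0% of values, so depth is known, but whether a unit is a read or a pair is not. The notes name GRCm39, but 94.9% of 20458 coding genes lie within 1000 bases of their GRCm38.p6 place, and coordinates are given on that build. How the library sizes behind the FPKM were set is not given in the sources used here. No value column was left unmapped.

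Genes averaging 1 FPKM or more were tested with limma 3.58.1 (R 4.3.3) on log2(FPKM + 1), with trend and robust moderation, two-sided, Benjamini-Hochberg over 12568 genes. The pseudocount of 1 understates fold changes of low genes. Single values were compared by exact permutation tests (smallest p 0.1) in scipy 1.17.1. The fit was tested on simulated data. Alternatives covered pseudocounts, filters, scalings, moderation, limma-voom, array weights, a replicate block and each library left out.

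The 44 genes, the lists and the tests were chosen with earlier results of these data known. Any of the 44 could be named, and values in every library were given by rule for the 2 genes of each role with the smallest and the 1 with the largest adjusted p, and for Pcna, Mcm2 to Mcm7, Cdt1 and Rrm2. Orc1, below the filter, was added outside the rule. In other lists the rule allowed up to 4 by adjusted p and the first of the opposite sign. Some genes counted in these lists are not reported by name here.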

Additional observations from a re-analysis of the deposited data

How the results depend on the processing

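Of the 44 genes, 26 were lower as reported. The count was 14 without a filter on low values (44 tested, beside 1.78% of all tested genes lower) and ranged over 14 to 28 with a library left out. It was 19 of the 28 averaging 5 FPKM or more (6.37% of all tested genes), 38 under both fixed-total scalings (12.7%), 37 with array weights (13.3%) and between 23 and 31 under the other settings, while 0 were higher throughout. Limma-voom on recovered reads called 30, among them Mcm10, Rfc5, Rpa2 and Chaf1a. The median log2 fold change stayed between -0.53 and -0.77 under the settings tried. Scaling to a fixed total with and without mitochondrial genes moved the median of all tested genes by -0.13 and -0.14, and relative to it the genes' median was -0.62 under both. The 42 lower among the other replication and cell cycle genes became 21 without a filter, 19 among genes averaging 5 FPKM or more and 17 to 40 with a library left out. The 2 higher became 1 under both fixed-total scalings, 4 with array weights and 1 to 3 with a library left out. The 1 divergent partner called became 0 without a filter or with the replicate block, 2 with limma-voom, 3 with upper-quartile scaling, either fixed total or array weights, and 0 to 1 with a library left out. The cause of these shifts was not tested, beyond the smaller number of libraries or genes in some.

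Replicate numbers showed no sign of pairing the libraries. Same-numbered libraries correlated at -0.22, -0.08 and -0.08 in their deviations, and the other pairs at -0.14 to 0.26. With 3 libraries per group these values cannot exclude a pairing. With the replicate block 23 of the 44 genes were lower. Orc1 and Fen1 averaged under 1 FPKM and were left out of the main fit by the filter, so no result is given for them. They had 41 to 75 and 8 to 37 reads a library.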
